A study of Mus musculus with 4 samples.

Results

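The host transcripts of small nucleolar RNAs (snoRNAs) were examined in total RNA of monocytes and neutrophils taken from peripheral blood of C57BL6 mice at the adult stage, with 2 libraries of each cell type. The hosts were chosen by symbol, as Gas5, Snhg1, Snhg3, Snhg5, Snhg6, Snhg8 and Snhg12, and their rows were found by Ensembl identifier among the 43346 gene identifiers of the tables. Of the 7 genes listed, 5 had a row. Snhg1 and Snhg8 had no row under their identifiers in the GENCODE M21 annotation, so their own transcripts were not analysed here, although snoRNA genes inside both were. The monocytes were labelled Gr-1+Mac-1+ and were sorted from the mononuclear layer of a Ficoll gradient. The study's supplement lists a different gate for them, Ly6g-, CD11b+. The neutrophils were taken from the pellet of the gradient once red cells had been lysed, and no sort is named for them. The labels give no other treatment and no genetic change in either group, and do not say whether the libraries of a cell type came from separate animals, so p-values measure only the spread between these samples.

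Most snoRNAs of mammals are cut out of the introns of longer transcripts, and in a few hosts the spliced exons seem to code for no protein. The snoRNAs then join proteins to form particles that guide the chemical modification of ribosomal RNA, with box C/D snoRNAs directing ribose methylation and box H/ACA snoRNAs directing pseudouridylation. Many such hosts start with a run of pyrimidines, as the mRNAs of ribosomal proteins do, and their spliced RNAs are known targets of nonsense-mediated decay, which degrades RNAs with an early stop codon as they are translated. Gas5 was first described as a transcript that builds up in cells that stop growing, in which such decay is slow.

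The stretches around the annotated starts are shown because this first part of the RNA is the feature that hosts are known to share with ribosomal protein mRNAs. They come from RefSeq windows of 300 bases (250 before and 50 after the start, build GRCm38.p6), which were found for 6 of the 7 genes. Each line gives 40 bases before the start in lower case and 40 bases from the start on in capitals.
Gas5: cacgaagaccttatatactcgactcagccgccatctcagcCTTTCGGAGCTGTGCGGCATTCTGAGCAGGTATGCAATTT
Snhg12: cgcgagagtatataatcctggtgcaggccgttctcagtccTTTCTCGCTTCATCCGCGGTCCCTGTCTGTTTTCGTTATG
Snhg8: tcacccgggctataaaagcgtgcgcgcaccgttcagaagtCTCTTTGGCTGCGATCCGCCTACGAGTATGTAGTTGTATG
Snhg1: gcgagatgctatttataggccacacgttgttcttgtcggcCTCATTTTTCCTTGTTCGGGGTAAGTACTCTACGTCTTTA
Snhg5: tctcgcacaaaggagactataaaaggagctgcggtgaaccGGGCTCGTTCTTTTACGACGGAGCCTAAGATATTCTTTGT
Snhg3: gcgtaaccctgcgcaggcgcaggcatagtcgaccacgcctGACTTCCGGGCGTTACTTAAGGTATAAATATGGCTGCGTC
The stretches lie at chr1:161035126-161035205 (Gas5, plus strand, the more downstream of 2 windows), chr4:132308638-132308717 (Snhg12, plus strand), chr3:123508297-123508376 (Snhg8, minus strand), chr19:8723447-8723526 (Snhg1, plus strand), chr9:88522858-88522937 (Snhg5, minus strand) and chr4:132353647-132353726 (Snhg3, minus strand). Pyrimidine letters were searched on the strand of the gene within 20 bases of the start. Of 32851 windows of all genes, 1.95% held CTTTCC there and 1.43% held CTTTTC, while 1.60% held TCTTTC and 0.56% held TTCCTTT, so that 4.72% held at least one of these. The 7 host windows held 0 of them. An unbroken run of C and T from the first base, counted after the stretches had been seen, was 5 bases in the Gas5 stretch shown, 6 in Snhg12 and 6 in Snhg8. Runs of 5 or more were in 4.44% of all windows. The run was 3 bases in Snhg1, and the annotated starts of Snhg5, Snhg3 and the other Gas5 window were purines. The palindrome CACGTG, which reads the same on both strands, was in 0 of the 7 host windows and in 7.15% of all windows. These starts are annotations and were not measured in these libraries.

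The expected counts of genes summed to 26076261 and 25538433 in monocyte replicates 1 and 2, against 21634828 and 20549572 in neutrophil replicates 1 and 2. The monocyte pair varied more than the neutrophil pair, at 45.6% against 14.7% for edgeR's biological coefficient of variation. Defining markers fitted the labels for the most part. Of the monocyte genes 10 of 12 were called higher in monocytes, and of the neutrophil genes 11 of 11 higher in neutrophils. Ly6g and Camp had 0 counts in both monocyte libraries. They were low in neutrophils too, at 145 and 118 counts for Ly6g and 26 and 17 for Camp. Of the other monocyte genes Cd14 was higher in neutrophils and Ly6c2 was not called. Other blood cells were also represented. All 8 NK cell markers were higher in monocytes, where they summed to 2510 and 2495 CPM (counts scaled to a library of 1000000), against 25.9 and 26.4 CPM in neutrophils. All 8 B cell markers were higher in neutrophils, at a sum of 698 and 803 CPM in monocytes against 4496 and 4352 CPM in neutrophils, and 7 of 8 T cell markers were higher in neutrophils, at 17.3 and 19.3 CPM against 130 and 137 CPM. Of the markers of other cells, 4 of 6 platelet and 4 of 6 red cell genes were higher in neutrophils, and 4 of 4 basophil genes and 1 of 2 tested eosinophil genes higher in monocytes. The part of these other cells in the host values below was not tested.

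Gas5 was by far the most abundant of the 5 hosts in both cell types, and none of the 5 passed the test between monocytes and neutrophils. Snhg5, Snhg6 and Snhg3 stood at the higher level in both monocyte libraries, Gas5 in both neutrophil libraries, and the 2 monocyte libraries differed in Snhg12. Levels are RSEM expected counts divided by the library total, as CPM, and each fold change is the log2 ratio of monocytes to neutrophils with its standard error, so a negative value means a higher level in neutrophils. Of 14309 genes tested with the edgeR quasi-likelihood test, 42.6% were called at a Benjamini-Hochberg adjusted p under 0.05, and 0 of the 5 hosts were. At an unadjusted p under 0.05 the count was 1 of 5 hosts (Snhg5), against 50.5% of all tested genes. DESeq2 called 0 hosts and 44.9% of all tested genes. Limma on log2(TPM + 1) called 2 hosts higher in monocytes, Snhg3 and Snhg6, where it called 31.4% of all tested genes and 16.2% as higher in monocytes. With log2(TPM + 0.1) it called the same 2 hosts, at shares of 31.5% and 16.4%. The median log2 fold change was 0.47 over the 5 hosts and -0.07 over all tested genes, and the median size of the change was 0.47 for the hosts and 0.76 for all genes.

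**Figure D1:**
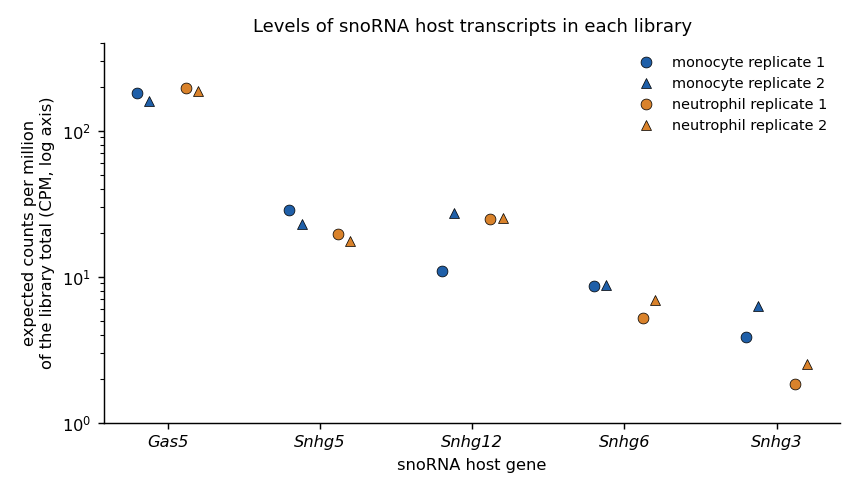
CPM (log axis) of the 5 snoRNA hosts in each library, monocytes in blue and neutrophils in orange, circles for replicate 1 and triangles for replicate 2. Gas5 lies near 170.0 CPM in monocytes and 192 CPM in neutrophils, the groups do not overlap in 4 hosts, and in Snhg12 monocyte replicate 1 lies apart at 11.0 CPM.

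Gas5 (ENSMUSG00000053332, chromosome 1, 161034422 to 161038539, plus strand, mm10) is the host of a cluster of box C/D snoRNAs. It had 4711 and 4067 expected counts in monocytes, or 181 and 159 CPM, against 4238 and 3863 expected counts in neutrophils, or 196 and 188 CPM. Both monocyte libraries lay below both neutrophil libraries, and the counting intervals of monocyte replicate 1 (176 to 186 CPM) and neutrophil replicate 2 (182 to 194 CPM) overlapped. Such intervals cover counting error only. The log2 fold change was -0.18 ± 0.09, with a 95% interval of -0.41 to 0.06 and an adjusted p = 0.185 with edgeR. In bulk samples such as these, fewer cells with the transcript and less of it per cell cannot be told apart. Gas5 gave 77.6% and 70.9% of the summed CPM of the 5 hosts in the monocyte libraries and 79.1% and 78.2% in the neutrophil libraries. The sum itself was 233 and 225 CPM in monocytes against 248 and 240 CPM in neutrophils. On the length-corrected TPM scale Gas5 ranked 5 among 1217 tested long noncoding genes in monocytes, at a mean of 60.8 TPM, and 4 in neutrophils, at 51.1 TPM.

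The direction of the Gas5 difference turned with the correction for length. Gas5 stood at 64.7 and 56.9 TPM in monocytes, against 56.5 and 45.6 TPM in neutrophils, so that here both monocyte libraries lay above both neutrophil libraries. The authors' 95% bounds around monocyte replicate 2 (54.6 to 58.9 TPM) and neutrophil replicate 1 (54.0 to 59.5 TPM) overlapped. The log2 fold change was 0.23 with the effective length of each library as an offset in edgeR (adjusted p = 0.185), and 0.25 with limma on log2(TPM + 1) (adjusted p = 0.282). Without monocyte replicate 1, the value on counts was -0.27. A fit with 1 monocyte library takes its spread from the neutrophil pair alone, so only its value is given here.

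The isoform-weighted length that RSEM assigned to Gas5 was shorter in both monocyte libraries. This is the mean length of the annotated transcripts of a gene, weighted by the share of the gene's RNA that RSEM assigned to each. It was 826 and 754 bases in monocytes, against 942 and 1030 bases in neutrophils, a ratio of 0.80. The tables held 25 Gas5 transcripts of 346 to 2556 bases, of which 16 carried at least 1 snoRNA within an exon, as a transcript with an intron left in does. The levels of single transcripts were not analysed here.

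**Figure D2:**
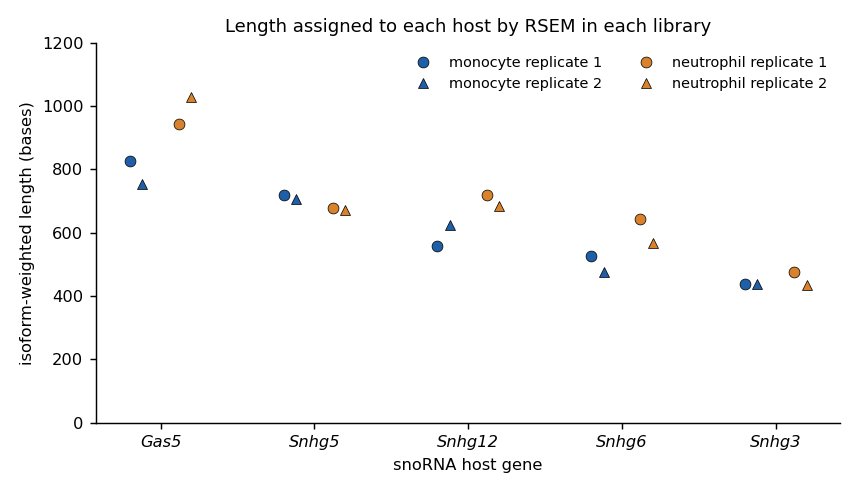
Isoform-weighted length in bases of the 5 hosts in each library (colours and symbols as in the plot of levels). Gas5, Snhg12 and Snhg6 are longer in both neutrophil libraries, Snhg5 is slightly longer in both monocyte libraries, and the Snhg3 lengths overlap.

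Of the other 4 hosts, Snhg12 and Snhg6 also had the greater length in both neutrophil libraries. Snhg12 measured 559 and 626 bases in monocytes, against 719 and 683 bases in neutrophils, and Snhg6 measured 528 and 475 bases against 642 and 568 bases. Snhg5 was slightly longer in monocytes, at 719 and 707 bases against 679 and 672 bases, and the Snhg3 values overlapped. Thus 3 of 5 hosts were longer in neutrophils and 1 of 5 in monocytes without overlap between the groups. Among 8827 tested genes whose length varied, the shares were 21.5% and 21.2%. Lengths were described without a test. In Snhg12, 5 of 7 transcripts carried a snoRNA in an exon, and in Snhg6 and Snhg3 0 of 5 each. Of the 8 Snhg5 transcripts, only the 6 that M21 also holds could be searched, and 2 of these carried one.

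Snhg5 (ENSMUSG00000097195, chromosome 9, 88521050 to 88522929, minus strand, mm10), whose introns hold the near-identical box C/D snoRNAs Snord50a and Snord50b, had 744 and 586 expected counts in monocytes, against 425 and 361 in neutrophils. These were 28.5 and 23.0 CPM in monocytes against 19.6 and 17.6 CPM in neutrophils. Both monocyte libraries lay above both neutrophil libraries. The log2 fold change was 0.47 ± 0.18, with a 95% interval of 0.02 to 0.91, an unadjusted p = 0.0432 and an adjusted p = 0.0883 in edgeR. Without monocyte replicate 2 the value was 0.61, and without monocyte replicate 1 it was 0.31.

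Snhg6 (ENSMUSG00000098234, chromosome 1, 9941959 to 9944118, minus strand, mm10), the host of the box C/D snoRNA Snord87, had 227 and 225 expected counts in monocytes, against 113 and 143 in neutrophils. The monocyte libraries were close to each other, at 8.71 and 8.81 CPM, and both lay above the neutrophil libraries at 5.22 and 6.96 CPM. The log2 fold change was 0.52 ± 0.31, with a 95% interval of -0.25 to 1.29 and an edgeR adjusted p = 0.232. On the TPM scale the gap was wider, with 5.75 and 5.95 TPM in monocytes against 2.45 and 3.60 TPM in neutrophils, and limma on log2(TPM + 1) called it at 0.78 (adjusted p = 0.0401). The 3′ end of Snhg6 overlaps that of Mcmdc2, a meiotic gene on the other strand, by 127 bases, and Mcmdc2 had 122 and 128 counts in monocytes against 113 and 100 in neutrophils.

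Snhg3 (ENSMUSG00000085241, chromosome 4, 132348014 to 132353686, minus strand, mm10), the host of the box H/ACA snoRNAs Snora73a and Snora73b, which are known to act in the cleavage of the ribosomal RNA precursor, was the least abundant of the 5. It had 101 and 162 expected counts in monocytes, against 39.9 and 52 in neutrophils, or 3.87 and 6.34 CPM against 1.84 and 2.53 CPM. The groups did not overlap, and the log2 fold change of 1.22 ± 0.51 was the largest among the 5 hosts in this fit, with a 95% interval of -0.06 to 2.5 and an edgeR adjusted p = 0.112. The value was 1.54 without monocyte replicate 1 and 0.82 without monocyte replicate 2. It was called at 0.97 with limma on log2(TPM + 1) (adjusted p = 0.0356). Snhg3 overlaps Rcc1, which codes for the exchange factor of the GTPase Ran and runs on the same strand, by 5592 bases, with its start 81 bases outside the Rcc1 locus. Rcc1 had 72 and 140 counts in monocytes against 41 and 64 in neutrophils, with a log2 fold change of 0.72 ± 0.59 that was not called, and reads of exons shared by the pair can be split between them. The antisense gene Gm17300 had 34 and 7 counts in monocytes against 13 and 12 in neutrophils.

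Snhg12 (ENSMUSG00000086290, chromosome 4, 132308623 to 132311024, plus strand, mm10), the host of Snora16a, Snora44, Snora61 and Snord99, had 286 and 696 expected counts in monocytes, against 541 and 521 in neutrophils. The monocyte libraries lay at 11.0 and 27.3 CPM, below and above the neutrophil libraries at 25 and 25.4 CPM, so that the groups overlapped. The monocyte libraries differed 2.49-fold from each other, more than in any of the other 4 hosts, whereas the neutrophil libraries differed 1.01-fold. The log2 fold change was -0.40 ± 0.41, with a 95% interval of -1.43 to 0.64 and an edgeR adjusted p = 0.488. It was -1.20 without monocyte replicate 2 and 0.12 without monocyte replicate 1, so the direction for Snhg12 rested on 1 library.

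**Figure D3:**
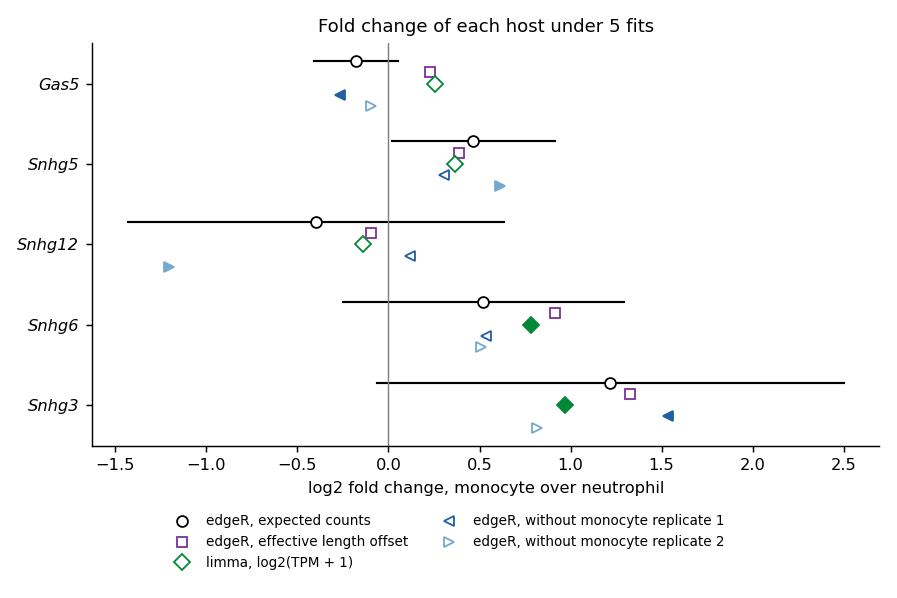
Log2 fold change (monocyte over neutrophil) of each host in 5 fits, with the 95% interval of the edgeR fit on expected counts as a line, and filled symbols where the adjusted p was under 0.05. Gas5 lies at -0.18 on counts and at 0.23 with an effective length offset, and Snhg12 ranges between -1.20 and 0.12 with a monocyte library left out. In fits without a monocyte library the spread comes from the neutrophil pair alone, so a filled symbol there ignores the spread of the monocyte pair.

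The levels of 4 of the 5 hosts did not overlap between the groups, 3 with monocytes higher and 1 with neutrophils higher. Among all tested genes 75.1% did not overlap, 35.2% with monocytes higher and 39.9% with neutrophils higher. In the order of mean CPM, Gas5 came first in both cell types. In monocytes Snhg5 (25.7 ± 3.95 CPM), Snhg12 (19.1 ± 11.5), Snhg6 (8.76 ± 0.07) and Snhg3 (5.11 ± 1.75) followed, and in neutrophils Snhg12 (25.2 ± 0.26 CPM), Snhg5 (18.6 ± 1.47), Snhg6 (6.09 ± 1.23) and Snhg3 (2.19 ± 0.49), all means ± SD of 2 libraries. Corrected for length the order was Gas5, Snhg5, Snhg12, Snhg6 and Snhg3 in monocytes and Gas5, Snhg12, Snhg5, Snhg6 and Snhg3 in neutrophils. Snhg5 and Snhg12 overlapped in monocytes, at 12.2 and 8.90 TPM against 6.65 and 12.4 TPM, while in neutrophils Snhg5 with 8.56 and 7.23 TPM lay below Snhg12 with 10.1 and 10.2 TPM. The other neighbours in these orders did not overlap.

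The gene next to the Gas5 start was higher in neutrophils. This gene, Zbtb37, codes for a zinc finger protein, runs on the opposite strand and overlaps Gas5 by 428 bases at the 5′ ends. It had 990 and 810 counts in monocytes, against 3208 and 2752 in neutrophils, and was called at -2.02 ± 0.13 (edgeR adjusted p = 2.14e-04). Corrected for length the value was smaller but still called, at -0.95 with the effective length offset and -0.61 with limma on log2(TPM + 1). The libraries were made by a stranded protocol, but no source used here says whether RSEM was run with strand, so reads of the overlap cannot be assigned to one gene with certainty. Slc3a2, which codes for an amino acid transporter chain and starts 106 bases from Snhg1 on the other strand, had 39.0 and 61.4 CPM in monocytes against 35.8 and 35.2 CPM in neutrophils, a difference of 0.50 ± 0.23 that was not called (adjusted p = 0.139). The difference was 0.79 without monocyte replicate 1.

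The snoRNAs inside the hosts have entries of their own in the tables. In all, 27 entries inside the 7 genes had a row. The 20 that were 87 bases or shorter had an effective length of 0 in RSEM, so that their TPM was 0 and their counts may be unreliable. Of the 27, 16 had 0 counts in each library, all of them among these 20. The C/D snoRNAs shown are those with at least 10 counts over the 4 libraries inside Gas5 and Snhg6, and the pair inside Snhg5, with the letters of box C (TGATGA) and box D (CTGA) in capitals. The H/ACA snoRNAs shown are a pair inside Snhg12, with the ACA that stands 3 bases from the end in capitals. Sequences are those of the GENCODE M21 transcripts.
Snord47 (Gas5): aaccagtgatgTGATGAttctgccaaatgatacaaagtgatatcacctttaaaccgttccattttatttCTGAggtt
Gm22357 (Gas5): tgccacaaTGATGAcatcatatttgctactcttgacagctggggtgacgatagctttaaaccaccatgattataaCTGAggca
Snord87 (Snhg6): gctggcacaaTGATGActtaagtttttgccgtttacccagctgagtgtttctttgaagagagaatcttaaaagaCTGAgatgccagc
Snord50a (Snhg5): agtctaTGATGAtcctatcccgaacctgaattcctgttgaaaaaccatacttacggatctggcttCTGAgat
Snord50b (Snhg5): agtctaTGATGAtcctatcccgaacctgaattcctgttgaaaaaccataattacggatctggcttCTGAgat
Snora16a (Snhg12): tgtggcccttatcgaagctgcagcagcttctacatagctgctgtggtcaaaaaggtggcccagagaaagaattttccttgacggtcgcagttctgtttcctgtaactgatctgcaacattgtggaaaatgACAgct
Snora44 (Snhg12): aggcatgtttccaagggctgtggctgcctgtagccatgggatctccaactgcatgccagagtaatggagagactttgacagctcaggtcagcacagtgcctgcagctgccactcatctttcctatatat
They lie at chr1:161038082-161038158 (Snord47, plus strand), chr1:161036057-161036139 (Gm22357, plus strand), chr1:9942463-9942549 (Snord87, minus strand), chr9:88521529-88521600 (Snord50a, minus strand), chr9:88521797-88521868 (Snord50b, minus strand), chr4:132309465-132309600 (Snora16a, plus strand) and chr4:132309941-132310069 (Snora44, plus strand). The annotated Snora44 sequence had no ACA at that distance from its end.

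Snord47, which guides a ribose methylation of the large ribosomal RNA, had 8.32 and 15.4 CPM in monocytes, against 0.09 and 2.04 CPM in neutrophils. It was called at 3.47 ± 1.09 (edgeR adjusted p = 0.0494), while its host Gas5 had a log2 fold change of -0.18. A snoRNA entry and host transcripts with that snoRNA in an exon may share reads, so such values may not be independent. Snord47, Gm22357 and Snord87 are all among the entries with an effective length of 0. The Snord47 call ended with DESeq2 size factors (adjusted p = 0.0504) and with totals without short and mitochondrial genes (adjusted p = 0.0533), and its value was 6.93 without neutrophil replicate 2 and 2.53 without neutrophil replicate 1. Gm22357 had 4.17 and 37.9 CPM in monocytes against 0.22 and 2.13 CPM in neutrophils and missed the threshold at 4.15 ± 1.33 (adjusted p = 0.0518). It passed with DESeq2 (adjusted p = 0.0412), with posterior mean counts (0.0473) and with no filter (1.09e-04). Its value was 5.02 without monocyte replicate 1, 6.49 without neutrophil replicate 2 and 1.81 without monocyte replicate 2. Snord87, inside Snhg6, had 8.17 and 25.3 CPM in monocytes against 0.14 and 3.36 CPM in neutrophils and missed it as well at 3.26 ± 1.19 (adjusted p = 0.0759). It passed with no filter, and with each library left out in turn it ran between 2.22 and 6.87. In these 3 entries both monocyte libraries lay above both neutrophil libraries, as they did in 35.2% of all tested genes.

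The H/ACA snoRNAs were longer and had counts in most libraries. Snora44, inside Snhg12, was the other of the 2 entries called among the 10 tested, where 42.6% of all tested genes were called. It stood at 2.03 and 1.35 CPM in monocytes against 4.74 and 8.03 CPM in neutrophils (log2 fold change -1.93 ± 0.52, edgeR adjusted p = 0.0307). That call ended without neutrophil replicate 1 (-2.26, adjusted p = 0.0813), without neutrophil replicate 2 (-1.50, adjusted p = 0.356) and with the effective length offset (-1.64, adjusted p = 0.0634). Snora61, also inside Snhg12, had 0 and 0.24 CPM in monocytes against 1.0 and 5.05 CPM in neutrophils and missed it (adjusted p = 0.0672). It passed with DESeq2 (adjusted p = 0.00455) and with no filter (0.00794). Snora16a from the same host had 6.10 and 11.6 CPM in monocytes against 6.93 and 13.0 CPM in neutrophils, overlapping. Snora73a and Snora73b, which match at 96.6% of their 205 positions and may share reads, summed to 34.0 and 51.1 CPM in monocytes against 45.6 and 58.7 CPM in neutrophils. Snora73a by itself was at 15.9 and 18.5 CPM in monocytes against 18.6 and 23.2 CPM in neutrophils, which did not overlap. Neither of the pair was called, and Snora73b was -0.79 without monocyte replicate 2. They also lie within the Rcc1 locus.

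Snhg1 and Snhg8, which had no row under their M21 identifiers, were examined only through such entries. A row for either under an older identifier is possible. Snord22 inside Snhg1, known to act in the cleavage of the ribosomal RNA precursor, was the most abundant of the 27, at 85.3 and 209 CPM in monocytes against 58.1 and 150 CPM in neutrophils. Snora24 inside Snhg8 had 14.7 and 20.8 CPM in monocytes against 13.3 and 24.7 CPM in neutrophils. Both overlapped between the groups and were not called, with an edgeR adjusted p = 0.528 for Snord22 and 0.848 for Snora24. The 2 snoRNA entries of Snhg5, Snord50a and Snord50b, were listed at 0 in each library, while Snhg5 itself had 361 to 744 counts. Both entries have 72 bases and an effective length of 0, so these zeros do not show that the snoRNAs were absent.

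**Figure D4:**
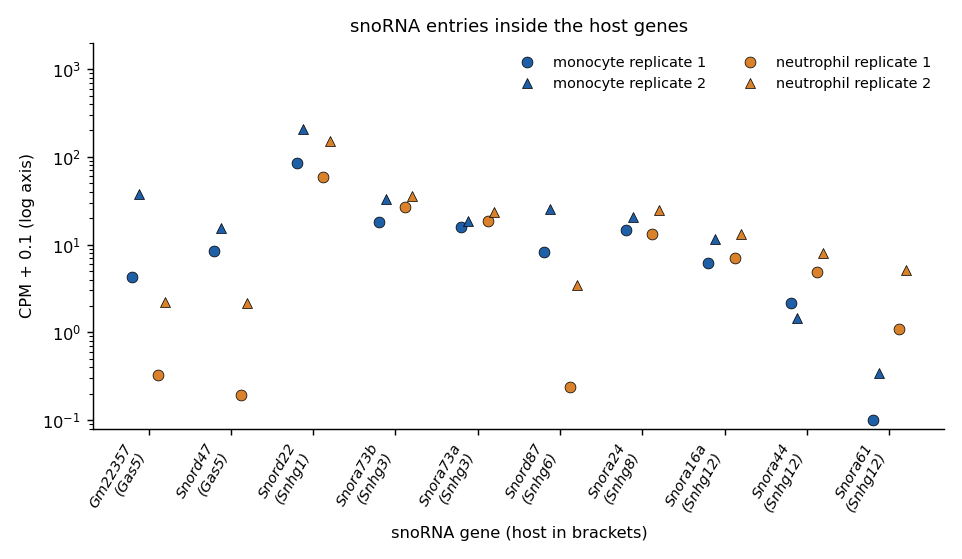
CPM after adding 0.1 (log axis) of the 10 snoRNA entries with at least 10 counts over the 4 libraries, with the host in brackets (colours and symbols as in the plot of levels). Gm22357, Snord47 and Snord87 are higher in both monocyte libraries, Snora44, Snora61 and Snora73a in both neutrophil libraries, and the other 4 overlap.

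The fragment length that RSEM used differed between the libraries. The median length minus effective length of genes over 2000 bases was 176 and 162 bases in monocytes, against 165 and 159 bases in neutrophils. Within each cell type, the library with the shorter fragments had the larger sum of snoRNA counts in each of the 6 hosts whose snoRNAs had counts. The sum over the Gas5 entries, for example, was 326 and 1371 counts in monocytes against 6.85 and 85.8 in neutrophils. Between the cell types this order did not hold, as monocyte replicate 1 had the longest fragments but a larger Gas5 sum than either neutrophil library. Single entries could also differ, as Snora44 had 53 and 34.4 counts in monocyte replicates 1 and 2. The part of fragment length in the snoRNA values was not tested.

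Other noncoding hosts were called in both directions. From a list of 15 such genes 10 had a row and 6 were tested, of which 1 was called higher in monocytes, 1 higher in neutrophils and 4 were not called, where 42.6% of all tested genes were called. Snhg15 had 39.5 and 52.3 CPM in monocytes, against 3.68 and 4.01 CPM in neutrophils, and was called at 3.58 ± 0.22 (edgeR adjusted p = 1.89e-04). Zfas1, a host of Snord12 genes, had 11.4 and 19.3 CPM in monocytes, against 37.8 and 36.9 CPM in neutrophils, and was called at -1.29 ± 0.27 (adjusted p = 0.0134). The Zfas1 value was -0.73 and not called with the effective length offset, and -0.72 and not called with limma on log2(TPM + 0.1). With limma on log2(TPM + 1) it was -0.63 and still called (adjusted p = 0.0486). It was -0.95 without monocyte replicate 1 and -1.72 without monocyte replicate 2. Snhg17 had 24.5 and 23.6 CPM in monocytes against 22.1 and 30.1 CPM in neutrophils and did not pass, at -0.12 ± 0.20, a direction that turned to 0.13 without neutrophil replicate 2. The list's median was 0.35.

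Hosts that code for proteins were called more often on the monocyte side. Of 68 tested protein-coding genes with a named snoRNA gene inside them, 32 were called higher in monocytes, 8 higher in neutrophils and 28 did not pass the threshold, at a median of 0.37. The shares of all tested genes were 20.8% and 21.8%. Hspa8, the constitutive chaperone that carries Snord14 genes, had 2271 and 2195 CPM in monocytes against 966 and 996 CPM in neutrophils (1.19 ± 0.07, called with edgeR). On the neutrophil side Srcap, a chromatin remodeller, stood at -1.27 ± 0.16 and Ncapd2, a condensin subunit, at -1.02 ± 0.17. Srcap was smaller but still called at -0.84 with the effective length offset and -0.65 with limma on log2(TPM + 1), while the Ncapd2 call ended with the offset (-0.87), with both limma fits (-0.84 and -0.67) and without neutrophil replicate 1 (-0.94). Eef2, the translocation factor of translation, was not called at 0.09 ± 0.07. The list shared 24 genes with the ribosomal protein genes, which were 34.3% of the hosts with a row and 28.9% of the ribosomal genes. Without those, 13 of 44 tested hosts were called higher in monocytes and 8 higher in neutrophils. Of 81 tested ribosomal protein genes, 65 were higher in monocytes, 1 (Rps15, -0.33 ± 0.09) was higher in neutrophils and 15 did not pass, at a median of 0.70. The Rps15 call ended with the length offset (-0.30), with both limma fits (-0.27 each) and without either neutrophil library (-0.38 and -0.28). The values were 0.75 ± 0.08 for Rps3a1, 0.92 ± 0.09 for Rpsa, 2.43 ± 0.35 for Rps27l and 1.52 ± 0.11 for Rps23. Genes of this family have many near-identical copies, so that their reads can be split among entries.

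Of the proteins of the snoRNA particles, 2 of 4 in the box C/D core, 0 of 4 in the box H/ACA core and 2 of 10 assembly factors were called with edgeR, where 42.6% of all tested genes were. Of 4 core proteins of box C/D particles, Nop58 (90.1 and 95.3 CPM in monocytes against 56.0 and 60.5 CPM in neutrophils, 0.67 ± 0.11) and Snu13 (0.61 ± 0.13) were called higher in monocytes, and Nop56 (-0.01 ± 0.12) and Fbl, the methyltransferase itself (0.20 ± 0.16), were not called. Without neutrophil replicate 1 the calls of Nop58 (0.61) and Snu13 (0.58) ended, and that of Snu13 also ended without neutrophil replicate 2 (0.65). Of the 4 H/ACA core proteins 0 were called with edgeR, DESeq2 or limma and 2 (Nhp2 and Nop10) had an unadjusted p under 0.05 in edgeR. Dkc1, the pseudouridine synthase, stood at -0.20 ± 0.14 and Nop10 at 0.61 ± 0.23. Without monocyte replicate 1 Nop10 was 0.75. Of 10 assembly factors, Nufip1 (1.42 ± 0.21) was called higher in monocytes and Ruvbl2, an ATPase of the assembly chaperone (-0.68 ± 0.17), higher in neutrophils. Its partner Ruvbl1 stood at 0.44 ± 0.17 and Nolc1, a nucleolar chaperone, at -0.09 ± 0.13, neither called. Ruvbl1 was 0.59 without monocyte replicate 2. The Ruvbl2 call ended without either neutrophil library (-0.70 and -0.65), with the effective length offset (-0.58) and with both limma fits (-0.54 and -0.39). Nop58 was 1.01 with the offset and Nufip1 0.78 with limma on log2(TPM + 1), both called.

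Genes of nonsense-mediated decay and translation termination were called in both directions, 6 of 17 higher in monocytes and 5 of 17 higher in neutrophils, beside 20.8% and 21.8% of all tested genes. Smg1, the kinase that acts on the decay helicase Upf1, had 347 and 337 CPM in monocytes against 719 and 664 CPM in neutrophils (-1.02 ± 0.08), and Upf2 stood at -1.15 ± 0.12 and Casc3, of the exon junction complex, at -1.25 ± 0.15. The Casc3 value was -0.11 with the effective length offset and -0.07 and -0.06 with the limma fits, not called in any of these. Etf1, the release factor that recognises stop codons, had 318 and 338 CPM in monocytes against 97.9 and 102 CPM in neutrophils (1.71 ± 0.09), and Magohb, of the exon junction complex, stood at 1.70 ± 0.49, but was 1.21 and not called without neutrophil replicate 2. That call also ended with the offset (1.71) and with both limma fits (1.76 and 1.24). Upf1 itself was not called, at -0.33 ± 0.16. Of 12 nucleolar and RNA polymerase I genes, 5 were higher in monocytes, among them Ncl (0.32 ± 0.08), Npm1 (0.80 ± 0.08), Polr1c (0.96 ± 0.24) and Taf1b (0.91 ± 0.16), and 4 were higher in neutrophils, among them Taf1a (-1.54 ± 0.30) and Taf1c (-1.32 ± 0.37). These counts stand beside the same shares of all tested genes. The Taf1c call ended with the offset (-0.61), with both limma fits (-0.48 and -0.21) and without either neutrophil library (-1.54 and -1.04), and that of Taf1a ended without neutrophil replicate 1 (-1.26). Without a neutrophil library the calls of Ncl (0.32 in both fits) and Polr1c (0.80 and 1.13) ended as well, as did that of Taf1b without neutrophil replicate 2 (0.77), and the Ncl call also ended with both limma fits (0.45 and 0.44). Here and in the lists above, Fbl, Nhp2 and Upf1 were named after their values were seen.

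**Figure D5:**
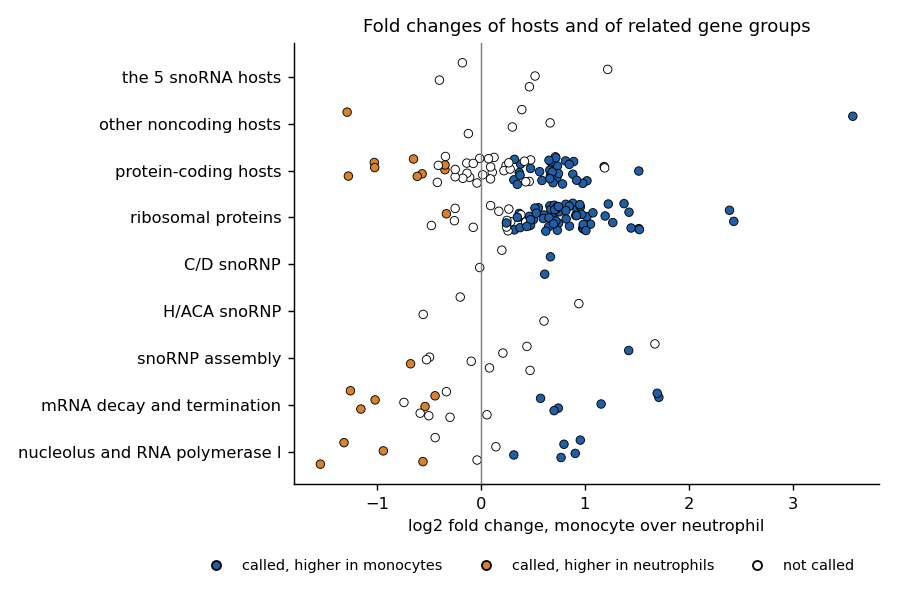
Log2 fold change (monocyte over neutrophil) of each tested gene by group, blue where called higher in monocytes, orange where called higher in neutrophils and white where not called. The 5 snoRNA hosts are white and lie between -0.40 and 1.22, while 65 of 81 ribosomal protein genes are blue.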

How the data were processed

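Total RNA was depleted of ribosomal RNA and made into stranded libraries with random hexamers and PCR, without molecular identifiers. Per the study's methods, the authors aligned reads to mm10 with STAR and counted them with RSEM on GENCODE M4. The deposited files give expected counts, which are estimated read numbers, and TPM, a length-corrected level. The deposited posterior mean counts entered 1 alternative. The lengths, posterior SD of the count and 95% bounds of TPM in the deposited tables were used as the authors gave them.

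Identifiers were matched to GENCODE M21 without their version (42462 of 43346, 98.0%). Entries that name no gene held at most 5.94e-04% of a library's counts and were left out. Expected counts were rounded, filtered with filterByExpr (14309 genes), scaled by TMM (factors 0.9936 to 1.0055) and tested with edgeR 4.0.16 in R 4.3.3, monocyte over neutrophil, group only. Calls are at a Benjamini-Hochberg adjusted p under 0.05 over all tested genes. Intervals are 95%, those of single libraries exact for counts. The edgeR test gives no standard error, so it was derived from the log2 fold change and the F statistic. Intervals of edgeR fold changes were built from it. The limma fits used log2(TPM + 1) and log2(TPM + 0.1). Totals were 20549572 to 26076261 counts per library. The fit was tested on simulated data with the same spread in every library, so the unequal spread of these pairs was not covered.

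The 14 alternatives were DESeq2 size factors, library totals alone, totals without short and mitochondrial genes, no filter, 10 CPM in 2 libraries, posterior mean counts, an effective length offset, DESeq2 1.42.0, limma 3.58.1 with both pseudocounts, and leaving out each library. The named genes are the members, in each list the 2 with the highest mean CPM and the 2 called in each direction with the largest fold change at 5 CPM or more, and neighbours that overlap a member or start within 2000 bases on the other strand. A gene that this rule chose among the protein-coding hosts is not reported here. A rule on genes of like pattern applied to called members and named none. The members and lists were chosen with earlier results of these data known. In fits without 1 library, the library left alone is assumed to have the spread of the other pair. The neutrophil pair varied less than the monocyte pair (14.7% against 45.6%). A call gained without a monocyte library therefore leaves out the spread of the monocyte pair. A call lost without a neutrophil library rests on the spread of the monocyte pair alone, and can end with little change in its value.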

Additional observations from a re-analysis of the deposited data

How the results depend on the processing

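No paired analysis was possible because the labels carry no replicate numbers, and those used here follow the order of deposit. The cause of a changed value was not tested. Limma on log2(TPM + 1) and on log2(TPM + 0.1) called 2 of the 5 hosts higher in monocytes, against 0. Host calls on both sides also changed in the fits without a monocyte library. Their spread comes from the neutrophil pair alone, so only their values are given above. Other noncoding hosts were called 1 to 2 times on the monocyte side with a library left out and 2 times with no filter, against 1, and on the neutrophil side 0 times with the effective length offset and with limma on log2(TPM + 0.1), against 1. Protein-coding hosts on the neutrophil side, 8 here, were 3 to 11 with a library left out, 5 with the length offset and 2 with either limma fit. Particle, decay and nucleolar genes were 14 and 10, but 6 to 16 and 3 to 14 with a library left out, and 6 with the length offset and 3 with either limma fit on the neutrophil side. Ribosomal protein genes higher in neutrophils were 1, but 0 to 4 with a library left out, 2 with no filter, with 10 CPM and with DESeq2, and 0 with the length offset and either limma fit.

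Gas5 turned to 0.23 with the length offset and to 0.25 and 0.26 with limma. In these 3 fits Rcc1 turned to -0.093, -0.016 and -0.024, Snora24 to 0.16, 0.21 and 0.21, and Snora16a to 0.049, 0.065 and 0.066. With a library left out, Snhg12 ran between -1.20 and 0.12, Gm17300 between -1.09 and 1.13, Snora73b between -0.79 and 0.068, Snora24 between -0.48 and 0.43, Snora16a between -0.71 and 0.36, Snord22 between -0.30 and 1.35, Nop56 between -0.13 and 0.12, and Snhg17 between -0.33 and 0.13. Snhg3 and Snhg6 were not tested under the filter of 10 CPM. The TPM and length fits gave no value for entries with an effective length of 0. With 2 libraries a group, a missed threshold does not show that levels were equal.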

Other observations

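Inside Gas5, the entry named Mir5117, whose symbol is that of a miRNA but whose annotated gene type is snoRNA, has 84 bases and held the letters TGATGA and CTGA at the ends where the box C/D snoRNAs of the same host have them. It had 0 and 0.35 CPM in monocytes and 0 CPM in both neutrophil libraries. It was chosen after its values were seen.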
